A study of Mus musculus with 37 samples.

Results

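The genes described here are the sensory receptor genes that held counts in single mouse oocytes. They are the genes whose symbol starts with Olfr, Vmn1r, Vmn2r or Taar and that had 10 or more RSEM expected counts in at least 6 of the 12 oocytes of batch A. Of 1981 receptor genes with such a symbol, among 54752 gene rows without spike-ins, 127 met this rule. The values that chose them are the batch A counts, so their levels in batch A are a description, and nothing is read from a test on them. The rule used no count of batch B, but it was written with earlier results of these data known.

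Single oocytes were taken from C57BL/6 females aged 6 to 8 weeks that had been given 5 IU of PMSG, and each was freed of its zona and polar body and sequenced alone after Smart-seq2 amplification and KAPA HyperPlus library construction. Germinal vesicle (GV) oocytes, arrested in prophase of the first meiosis, were collected 48 h after PMSG. Metaphase I (MI) oocytes were GV oocytes cultured in M16 medium for 8 h, and metaphase II (MII) oocytes were flushed from the ampulla 15 h after 5 IU of hCG. Batch A held 6 GV and 6 MII oocytes and batch B held 10 GV and 15 MI oocytes, so that GV was the only stage found in both batches, and the labels do not say whether oocytes came from separate animals. A GV oocyte of batch A had 7509875 to 12648629 RSEM counts on genes (median 10014033) and an MII oocyte 9930485 to 13988444 (median 10509159). In batch B a GV oocyte had 7184205 to 17724506 (median 11548242) and an MI oocyte 2709280 to 19390128 (median 12840734). These counts carried no molecular identifiers, and what is said of a single oocyte covers that library only.

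Odorant receptors (Olfr) are G protein-coupled receptors of the main olfactory epithelium, where a mature sensory neuron uses a single receptor gene and a single allele of it. Vomeronasal receptors of the V1R (Vmn1r) and V2R (Vmn2r) classes serve the vomeronasal organ, V2Rs carrying a long extracellular domain that binds peptides, and trace amine-associated receptors (Taar) sense volatile amines. Most odorant and V1R receptors are encoded by one coding exon, the genes lie in large clusters of close paralogs, and some odorant receptor transcripts have been found in germ cells, mainly in testis.

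The oocyte label was checked first. All 12 of 12 oocyte markers (Zp1, Zp2, Zp3, Gdf9, Bmp15, Figla, Nlrp5, Ooep, Padi6, Mos, Oosp1 and Zar1) were counted in every oocyte. Their summed level, in RSEM counts scaled to a library total of 1000000 gene counts (CPM), was 13376 to 24385 in GV and 8533 to 11510 in MII oocytes of batch A, and 4172 to 8127 in GV and 2997 to 7015 in MI oocytes of batch B, and Gdf9, an oocyte-secreted growth factor, was the most abundant in each group. Markers of the cells that normally use these receptors were scarce. The 11 markers of olfactory sensory neurons summed to 8.84 to 18.9 CPM in GV and 10.3 to 19.3 CPM in MII oocytes of batch A, and to 11.4 to 30.6 CPM in GV and 4.89 to 37.6 CPM in MI oocytes of batch B. Most of that came from the channel genes Ano2 and Cnga4. Omp, the marker of mature olfactory neurons, was below 1 count in 33 of 37 oocytes, and Rtp1, a chaperone that brings odorant receptors to the membrane, was below 1 count in 36 of 37. Other members of the list were often counted. Ano2 and Cnga4 had at least 1 count in every oocyte, and Cngb1 was below 1 count in only 2, Cnga2 in 5 and Adcy3 in 9. Of the 6 markers of vomeronasal neurons, whose sum was 138 to 579 CPM in the GV oocytes of both batches, 249 to 458.2 CPM in MII and 190 to 418 CPM in MI oocytes, most was Meis2, a transcription factor of many tissues. Gnai2, a G protein subunit gene used by V1R neurons and by many other cells, had at least 1 count in every oocyte, with a mean of 39.5 CPM in GV and 40.4 CPM in MII oocytes of batch A and 16.3 CPM in GV and 21.5 CPM in MI oocytes of batch B. The vomeronasal channel gene Trpc2 was below 1 count in 27 of 37 oocytes and Gng8 in 32 of 37.

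Markers of other cells that could cling to or mix with an oocyte were also low. The 12 cumulus and granulosa markers summed to 31.5 to 61.9 CPM in GV and 31.6 to 49.0 CPM in MII oocytes of batch A, and to 22.8 to 44.5 CPM in GV and 22.1 to 59.0 CPM in MI oocytes of batch B, with Cyp19a1 leading in all groups but MI, where Nr5a2 led. Fshr was below 1 count in 29 of 37 oocytes and Foxl2 in 32 of 37. By contrast Cyp19a1 and Nr5a2 had at least 1 count in every oocyte, and Kitl was below 1 count in only 1 oocyte and Inhba in 2. The 6 sperm and testis markers reached at most 9.46 CPM, in a GV oocyte of batch B. Prm2 had the highest mean CPM of them in each group and was below 1 count in only 3 of 37 oocytes. Tnp2 and Prm1 were below 1 count in 34 of 37 oocytes each and reached at most 34 and 19.2 counts, and Acr was below 1 count in all 37. The 8 blood and immune markers summed to at most 0.643 CPM in the batch A oocytes other than MII oocyte 1, where they reached 14.4 CPM with Hba-a1 leading, and to 0.898 to 7.96 CPM in batch B, mostly Hbb-bs and Hbb-bt. MII oocyte 1 also had more genes with counts than any other oocyte, and some of the receptor results are given with and without it. The part of these markers in the receptor counts was not tested.

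The 127 receptors made up a small part of each library. They comprised 75 of 1407 odorant receptor genes, 19 of 320 V1R genes, 32 of 238 V2R genes and 1 of 16 trace amine-associated receptor genes, Taar9. They held 96.8% of all receptor counts in batch A and 98.6% in batch B, while 401 receptor genes had no RSEM count in any of the 37 oocytes. Odorant receptors carried 75.2% of the counts of the 127 genes in batch A and 74.7% in batch B, V2Rs 13.8% and 14.3%, and V1Rs 10.9% and 11.0%. By genome position 37 of the 127 lay on chromosome 7, which holds 526 of all 1981 receptor genes. Chromosome 2 had 19 members of 372 receptor genes and chromosome 17 had 16 of 139. Chromosome 9 had 11 of 173 and chromosome 6 had 10 of 128. The taste and formyl peptide receptors, treated by the same rule for comparison, gave 1 of 3 Tas1r genes (Tas1r1), 0 of 40 Tas2r genes and 0 of 8 Fpr genes.

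Summed over the 127 genes, the level was 6285 to 11295 CPM in GV oocytes of batch A (mean 8751, SD 1626) and 5262 to 8316 CPM in MII oocytes (mean 6366, SD 1061). Without MII oocyte 1, the highest of its group, the MII mean was 5976. In batch B the sum was 6057 to 8382 CPM in GV and 4982 to 8947 CPM in MI oocytes, with means of 7212 and 7409. The ranges of the stages overlapped within both batches. Counted with HTSeq instead, the same genes held a mean of only 344 HTSeq counts per 1000000 in GV and 288 in MII oocytes of batch A, and 240 and 223 in GV and MI oocytes of batch B. The member rule itself was met by 48 receptors on HTSeq counts, of which 37 were among the 127 (77.1% of the 48 and 29.1% of the 127).

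**Figure D1:**
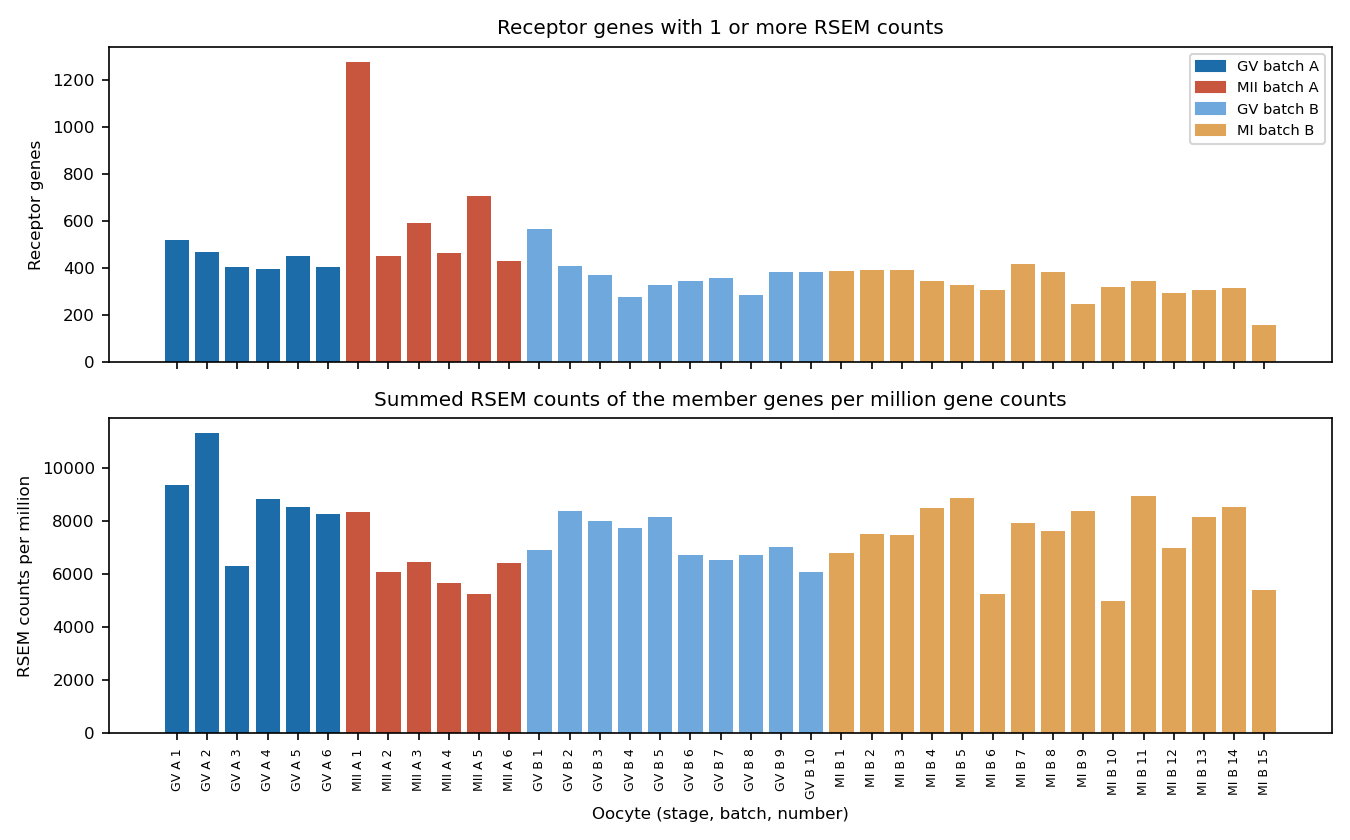
Receptor genes with 1 or more RSEM counts (upper panel, number of genes) and summed RSEM counts of the 127 member genes in CPM (lower panel), each bar 1 oocyte, coloured by stage and batch. MII oocyte 1 of batch A had 1275 receptor genes with a count, while its summed level of 8316 CPM lay within the range of the GV oocytes.

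A few receptors carried most of the counts, and they were the same ones in every oocyte. Olfr624 had the most RSEM counts of the 127 in 37 of 37 oocytes and Olfr472 came next in 37 of 37. Vmn2r92 was at rank 3 in 32 of 37. The same 6 genes, Olfr624, Olfr472, Vmn2r92, Vmn1r203, Olfr639 and Olfr1173, led in all 37 oocytes, and with Olfr374 and Olfr1330 they were the leading 8 in 33 of 37. Olfr624 alone held 33.8% of the members' counts in batch A and 29.6% in batch B, the leading 3 held 59.4% and 63.7%, and the leading 8 held 85.6% and 92.3%. To reach 90% of the members' counts took 13 genes in batch A, 11 without MII oocyte 1, and 7 in batch B. Across the 127 genes the mean RSEM counts of the batches had a Spearman correlation of 0.727, given as a description, since the genes are not independent and the libraries of a batch are shared.

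**Figure D2:**
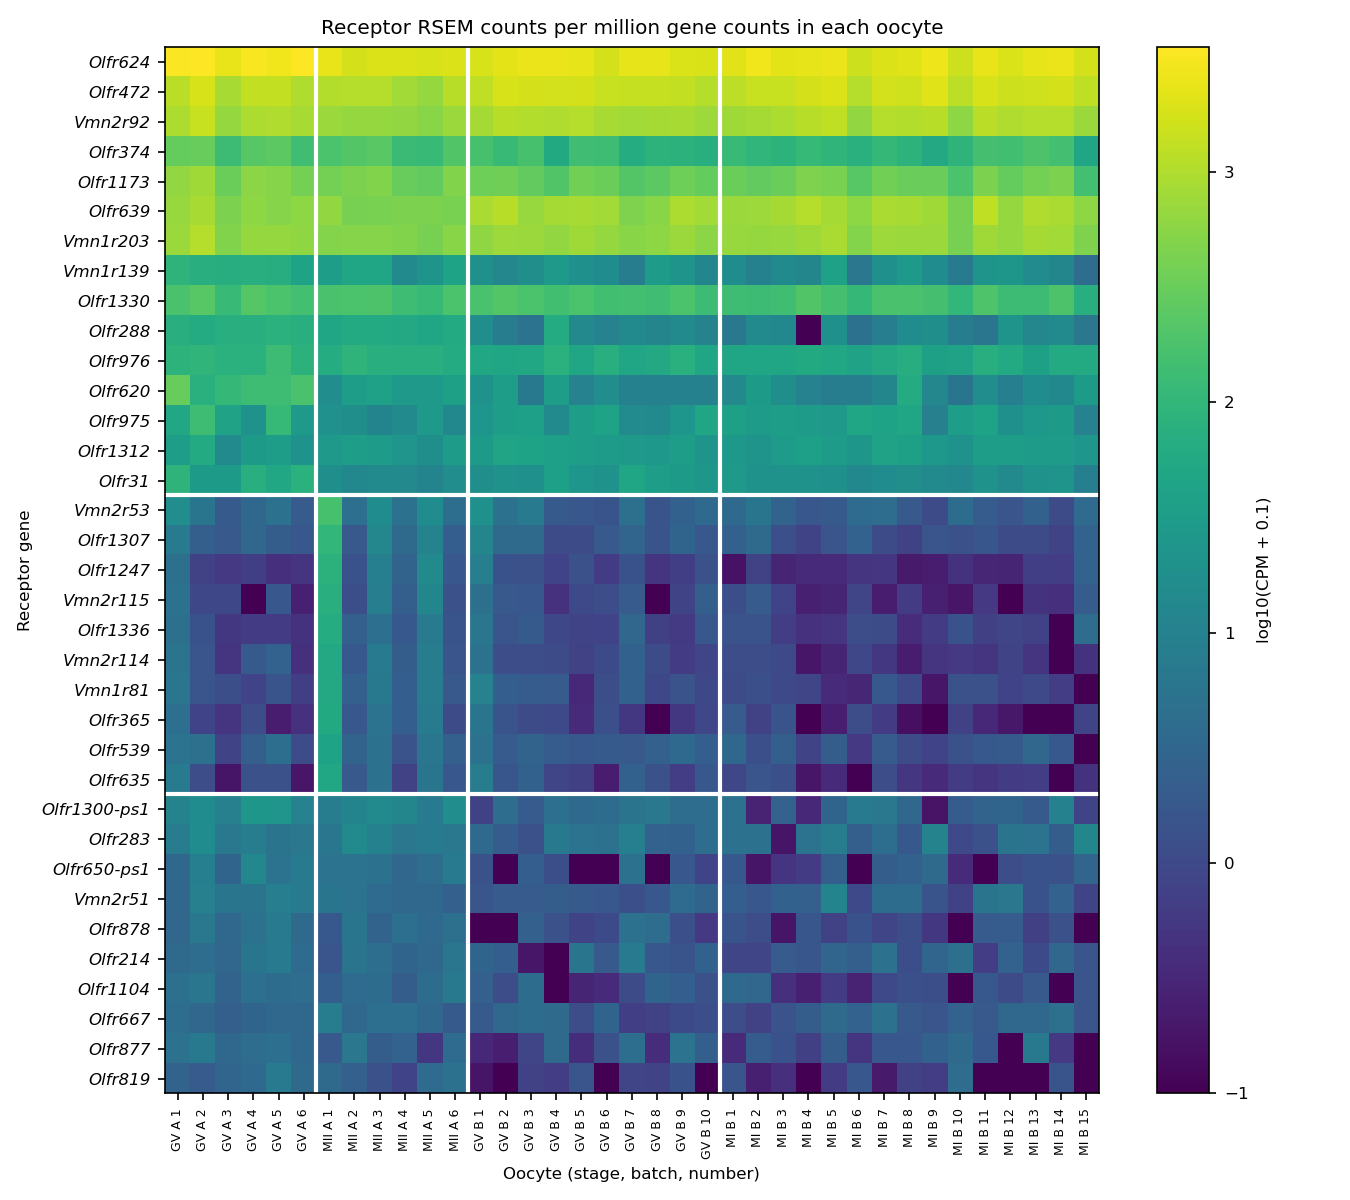
Level of 35 receptor genes (rows) in 37 oocytes (columns, grouped by stage and batch), as the log10 of CPM plus 0.1. The upper block holds the 15 members with the highest mean TPM in batch A, the middle block 10 members with more than 50% of their batch A counts in MII oocyte 1, and the lower block 10 members with at least as many HTSeq as RSEM counts. In the upper block Olfr624 and Olfr472 are brightest. Vmn1r139, Olfr288 and Olfr620 are dimmer in most columns of batch B than in the GV columns of batch A, and Olfr288 is dark in MI oocyte 4. The middle block is brightest in the column of MII oocyte 1.

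Olfr624 (chromosome 7, 103665461 to 103671191, minus strand, mm10) is an odorant receptor gene annotated as 1 transcript of 5731 bases in 1 exon, of which 924 bases are coding. Its level was 2414, 3169 and 3480 CPM (lowest, median and highest) in GV and 1757, 1978 and 2430 CPM in MII oocytes of batch A, and the highest MII value was in oocyte 1. In batch B it was 1762, 2318 and 2561 CPM in GV and 1578, 2288 and 2751 CPM in MI oocytes. The stages of batch A touched only between the lowest GV and the highest MII oocyte, and those of batch B overlapped throughout. In TPM, which divides transcript counts by annotated length and scales the sum to 1000000, Olfr624 had a median of 995 in GV and 618 in MII oocytes of batch A, and 733 and 751 in GV and MI oocytes of batch B. No other receptor had a mean TPM above it in either batch.

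Olfr472, which follows Olfr624 by TPM and lies farther along chromosome 7 (107897902 to 107907762, plus strand), had 868, 1234 and 1877 CPM in GV and 678, 1067 and 1149 CPM in MII oocytes of batch A. In batch B it had 1098, 1426 and 1811 CPM in GV and 1071, 1618 and 2103 CPM in MI oocytes. It was thus one of the leading genes whose level was higher in the GV oocytes of batch B than in those of batch A, with a mean CPM in batch A of 0.84 times that in batch B. Olfr639, also on chromosome 7, showed a ratio of 0.767 between the same GV groups. Its levels were 449, 587 and 890 CPM in GV and 413, 439 and 648 CPM in MII oocytes of batch A, and 457, 831 and 1145 CPM in GV and 408, 835 and 1253 CPM in MI oocytes of batch B. Most receptors lay the other way, a direction that a rule on batch A counts favours, with 99 of the 127 having a higher mean CPM in the GV oocytes of batch A (median ratio 1.73). Of all genes with a mean of 10 or more RSEM counts in the 37 oocytes 75.2% did so too (median ratio 1.58). A batch is named by the labels only, and its preparation and sequencing cannot be told apart.

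The vomeronasal receptors among the leaders were Vmn2r92, Vmn1r203 and Vmn1r139. Vmn2r92, a V2R gene of 6 exons on chromosome 17 (18151887 to 18188886), had 661, 962 and 1426 CPM in GV and 533, 671 and 713 CPM in MII oocytes of batch A, and 754, 887 and 1110 CPM in GV and 595, 1023 and 1255 CPM in MI oocytes of batch B. Vmn1r203, a V1R gene on chromosome 13, had 472, 671 and 1084 CPM in GV and 410, 510.5 and 539 CPM in MII oocytes of batch A, with 553, 646 and 772 CPM in GV and 412, 710 and 925 CPM in MI oocytes of batch B. Both genes kept nearly the same level across batches at the GV stage, with mean CPM ratios of 1.06 and 1.07. Vmn1r139, a V1R gene on chromosome 7 with a leading transcript of 753 bases, did not. Its median was 68.7 CPM in GV and 38.3 CPM in MII oocytes of batch A, but 18.2 CPM in GV and 15.2 CPM in MI oocytes of batch B. Because that transcript is short, Vmn1r139 ranked 8 by mean TPM in batch A (124) but 13 by mean count.

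The remaining leaders were odorant receptors. Olfr1173, in the cluster on chromosome 2, had 336, 553 and 793 CPM in GV and 287, 417 and 480 CPM in MII oocytes of batch A, and medians of 309 CPM in GV and 324 CPM in MI oocytes of batch B. Olfr374, the only member on chromosome 8, had medians of 243 and 195 CPM in GV and MII oocytes of batch A and of 99.3 and 96.4 CPM in GV and MI oocytes of batch B. Olfr1330 on chromosome 4 had a median of 180 CPM in GV and 117 to 190 CPM in MII oocytes of batch A, and medians of 162 and 140 CPM in batch B. Olfr288 on chromosome 15 was a batch A receptor by level, with 61.2 to 79.0 CPM in GV and 47.7 to 59.5 CPM in MII oocytes, against a median of 12.5 CPM in GV and 12.8 CPM in MI oocytes of batch B. A single GV oocyte of batch B, oocyte 4, had 61.3 CPM, as much as batch A, and MI oocyte 4 had 0. Olfr976 on chromosome 9 had medians of 84.8 and 69.2 CPM in batch A and 51.2 and 51.9 CPM in batch B. Olfr1312 on chromosome 2 differed little between the groups, with medians of 31.6 and 29.1 CPM in batch A and 32.7 and 31.1 CPM in batch B.

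Among the 15 members with the highest mean TPM in batch A, Olfr620, Olfr31 and Olfr975 differed most between GV and MII oocytes. Olfr620, a neighbour of Olfr624 on chromosome 7 (103604895 to 103612534), had 76.5, 137 and 312 CPM in GV and 17.0, 31.5 and 40.4 CPM in MII oocytes of batch A, without overlap. In batch B, Olfr620 was low at both stages, with 6.65, 10.1 and 35.4 CPM in GV and 5.82, 12.9 and 61.1 CPM in MI oocytes, so that its GV levels in the batches did not overlap either. Olfr31 had 29.4, 62.6 and 89.8 CPM in GV and 11.0, 14.3 and 18.2 CPM in MII oocytes of batch A, again without overlap. Olfr975 had 21.3, 45.4 and 134 CPM in GV and 11.2, 16.5 and 28.2 CPM in MII oocytes, and its stages overlapped. These genes were selected on these same oocytes, so their difference between stages is a description, and no p is given for it.

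The direction between GV and MII depended on the scale for part of the list. All 15 of these receptors had a lower mean CPM in MII oocytes, but the median ratio of GV to MII over all genes with a mean of 10 or more RSEM counts was 1.18 on the same scale, and 13 of the 15 were above it. After TMM normalization 13 of 15 had a log2 fold change below 0 from GV to MII, Olfr1330 (0.09) and Olfr1312 (0.02) being the exceptions. With spike-in size factors all 15 were below 0, where the median of all genes itself moved from 0.01 to -0.72. Olfr620 was at -2.10 with TMM and -2.96 with spike-in factors, Olfr31 at -1.77 and -2.53, and Olfr624 at -0.37 and -1.09. On HTSeq counts scaled in the same way 11 of the 15 were lower in MII oocytes, and Olfr374, Olfr1330, Olfr975 and Olfr31 were higher, at means of at most 1.72 HTSeq counts per 1000000. Of all 127 members, 75 had a lower mean CPM in MII than in GV oocytes, and 85 did without MII oocyte 1. The GV to MII ratio of 62 of the 127 was above the median of all genes, so that the members as a whole lay about evenly on both sides of it.

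The calls between GV and MII in batch A are a description as well, since 122 of the 126 receptors tested were members chosen on these oocytes. A gene was called when the edgeR quasi-likelihood test gave a Benjamini-Hochberg adjusted p below 0.05 and a fold change over 2. Of the 126 receptor genes that passed the filter on low counts, 26 were called higher and 6 lower in MII oocytes, beside 2.15% called higher and 6.32% called lower among all 12929 genes tested. Among the 122 members, 25 were called higher and 6 lower, and nothing is read from either count. The number of higher calls fell when MII oocyte 1 was left out. The counts of that oocyte helped to choose the members, so nothing is read from this fall either. Without MII oocyte 1 only 7 receptors were called higher, all of them among the 26, and 7 lower, of which 5 were among the 6, beside 1.24% and 5.74% of all genes. In 25 of the 26 the highest level was in MII oocyte 1, a share that was not computed for all genes called higher. With spike-in size factors edgeR called 17 receptors higher and 26 lower, beside 1.01% and 29.3% of all genes. On HTSeq counts it called 0 higher and 2 lower (Olfr1043 and Olfr1197, named after the calls were seen), beside 0.753% and 5.04% of all genes, with 4 of 47 receptors at an unadjusted p below 0.05, 0 of these higher, beside 30.5% of all genes at that limit. DESeq2 on RSEM counts called 24 higher and 7 lower, beside 2.17% and 6.53%. With no filter on low counts edgeR called 138 receptors higher and 8 lower, beside 2.43% and 2.62%.

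MII oocyte 1 had more receptor genes with at least 1 count than any other oocyte, 1275, against 431 to 706 in the other MII oocytes and 396 to 521 in the GV oocytes of batch A. The same was seen on HTSeq counts, with 1397 receptor genes at 1 or more against 266 to 582 in the other oocytes of batch A, and over all genes, with 29518 at 1 or more RSEM counts against 19273 to 22244. MII oocyte 1 held the highest RSEM count of 60 of the 127 members. The share over all genes was not computed. The counts of this oocyte also helped to choose the members, 119 of which met the rule without it, so nothing is read from the 60. In 24 members it held more than 50% of all batch A counts, a set picked out after the values were seen. The leading transcript was over 5000 bases in 22 of the 24, against 67 of all 127 members. The HTSeq count was below 0.1 of the RSEM count in 22 of the 24, against 79 of the 127. Most of the set were odorant and V2R receptors, but these families also made up 75 and 32 of the 127 members. Vmn2r53, whose leading transcript spans 21388 bases, had 1838 RSEM counts in MII oocyte 1, 23.1 to 127 in GV oocytes and 42.4 to 220 in the other MII oocytes. Olfr1307 had 1089 counts in MII oocyte 1, 18.9 to 57.5 in GV oocytes and 17.2 to 149 in the other MII oocytes. Olfr1247 had 900 counts there and Vmn2r115 had 805, against at most 196 and 167 in any other oocyte of batch A. The HTSeq counts of the same genes in MII oocyte 1 were 41 for Vmn2r53, 47 for Olfr1307, 3 for Olfr1247 and 25 for Vmn2r115.

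The same 24 receptors had more counts, to a smaller extent, in a few other oocytes as well. Their summed level was 1189 CPM in MII oocyte 1, 149 CPM in MII oocyte 5, 127 CPM in MII oocyte 3 and 109 CPM in GV oocyte 1 of batch A, and 10.5 to 39.7 CPM in the other 8 oocytes of that batch. In batch B it was 144 CPM in GV oocyte 1 and 7.51 to 43.3 CPM in the other 24 oocytes. The oocytes with these higher sums were also those with the most receptor genes at 1 or more counts, with 706 in MII oocyte 5, 592 in MII oocyte 3, 521 in GV oocyte 1 of batch A and 564 in GV oocyte 1 of batch B. The leading 8 genes had 7.23% (Olfr1173) to 10.2% (Olfr639) of their batch A counts in MII oocyte 1, with 8.21% for Olfr624 and 8.20% for Olfr472. Olfr639 was higher there than in the other MII oocytes, at 648 CPM against 413 to 449 CPM.

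RSEM and HTSeq gave different accounts of which receptors were counted. Over 13391 genes with a mean of 10 or more RSEM counts in batch A, HTSeq counted a median of 1.96 times what RSEM did, while over the 127 members this ratio was 0.054 in batch A and 0.045 in batch B. The ratio was below 0.1 in 79 members, from 0.1 to below 1 in 26, and 1 or more in 22, these bounds having been set after the ratios were seen. Among all genes of that count level 9.13% had a ratio below 0.1, and among protein-coding genes 3.75%. The members and these genes were all chosen on RSEM counts, the denominator of the ratio, which favours low ratios. In batch B 75 of the 79 low members were low too and 21 of the 22 high members were high, while of the 26 between them 16 stayed, 6 were low and 4 were high. Across the 127 members the Spearman correlation of mean RSEM and mean HTSeq counts was 0.162 in batch A, and within the 22 high members it was 0.965, both given as descriptions. Choosing genes by the ratio of these counts favours a high correlation among them, so nothing is read from the second value.

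Every one of the 8 receptors that led by RSEM had a ratio near 0. They were ranked by RSEM counts, the denominator of the ratio, so that low ratios are favoured among them. Among all genes with a mean of 1000 or more RSEM counts in batch A 5.57% had a ratio below 0.1. Olfr624 had a mean of 26974 RSEM but 324 HTSeq counts in batch A, a ratio of 0.012. Olfr472 had 11764 and 72.3, a ratio of 0.0061, and Vmn2r92 had 8613 and 21.8, a ratio of 0.0025. Olfr374 had 2093 RSEM and 3.42 HTSeq counts on average, and Olfr620 had 928 and 1.17. By HTSeq the list had other leaders. Olfr976 came first with a mean of 1698 HTSeq counts (860 by RSEM), which was 28.0% of all receptor HTSeq counts in batch A, and Olfr624 came next. Olfr1300-ps1, annotated as a polymorphic pseudogene, followed with 239 HTSeq and 141 RSEM counts, then Olfr288 with 226 and 671, and Olfr283 with 208 and 88.6.

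**Figure D3:**
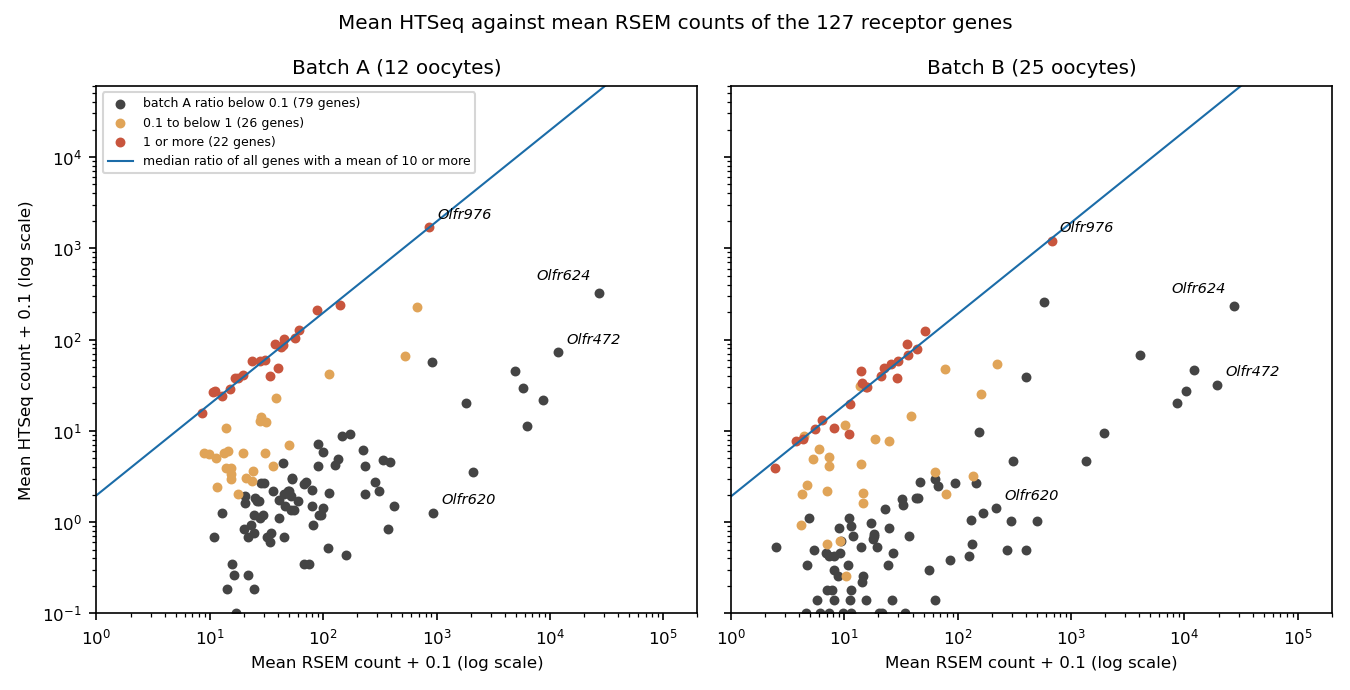
Mean HTSeq counts plus 0.1 against mean RSEM counts plus 0.1 of the 127 receptor genes in batch A (left) and batch B (right), both axes on log scales, each point 1 gene coloured by its batch A ratio class. The line marks the median HTSeq to RSEM ratio of all genes with a mean of 10 or more RSEM counts, 1.96 in batch A and 1.91 in batch B, and the 22 genes with a ratio of 1 or more lie along it in batch A, while Olfr624 and Olfr472 lie far below it.

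The 22 high members were the receptors on which the counts of RSEM and HTSeq stood in the ratio seen for most genes. Their ratios ran from 1.20 to 2.52 with a median of 2.02. They held 2.06% of the members' RSEM counts but 72.8% of their HTSeq counts in batch A, and 1.17% and 66.0% in batch B. Besides Olfr976, Olfr1300-ps1 and Olfr283 they included Olfr650-ps1, the V2R gene Vmn2r51, the V1R gene Vmn1r35 and Taar9. Taar9 had 0.0798, 1.27 and 4.33 CPM in GV and 0.183, 0.525 and 1.09 CPM in MII oocytes of batch A, so that the only trace amine-associated receptor among the members was near the count limit. Olfr1300-ps1 had 9.56, 13.3 and 24.8 CPM in GV and 7.50, 11.5 and 16.6 CPM in MII oocytes of batch A, but medians of 4.07 and 2.64 CPM in GV and MI oocytes of batch B. Only 1 of the 22, Olfr667, was highest in MII oocyte 1, against 47 of the 79 low members.

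MI oocytes 4, 8 and 9 stood apart in the comparison of the counting methods. Their median ratio over all genes was 1.03 to 1.07, against 1.93 to 2.10 in the other 12 MI oocytes. The summed HTSeq counts of the high members were 1.11 to 1.33 times their RSEM counts in these 3 oocytes and 1.83 to 2.10 times in the other 12. For the low members the ratio was 0.000839 to 0.00161 in the same 3 oocytes and 0.00574 to 0.0112 in the others. The ratio of the low members was thus lower in these libraries by a larger factor than that of the high members. Their RSEM levels did not stand apart, with 7621 to 8477 CPM over all 127 members in the 3 oocytes, within the 4982 to 8947 CPM of the group.

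Transcript length and shared sequence differed between these classes. The leading transcript of a high member, meaning the one with the most RSEM counts in batch A, was 1047 to 4100 bases long, and 0 of 22 exceeded 5000 bases, while 55 of the 79 low members did, with medians of 2388.5 and 6529 bases. The rule used counts that are not divided by length, so that a longer transcript passes it more easily. The longest annotated transcript had a median of 5605 bases over the 127 members and 2254 over the other 1854 receptor genes, and it exceeded 5000 bases in 60.6% and 10.9% of them. A median of 17.9% of the 31-base words of the leading transcript of a low member, and 2.94% for a high member, also occurred in a transcript of another gene. This share was 31.8% for Olfr624, 17.4% for Olfr472, 43.7% for Vmn2r92 and 43.7% for Olfr639, and how far it bears on their counts was not measured. For Olfr288 it was 91.6%, and 69.1% of its exonic bases were also exonic in Gm44579 on the same strand. The part of that gene in the counts of Olfr288 was not tested. By default HTSeq leaves out reads that align to several places, whereas RSEM divides them among transcripts. The part of such reads in the counts of the low members, and so in the levels of the 8 leading receptors, was not tested, and the strandedness of the HTSeq counting was not stated.

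RSEM placed the receptor counts mostly on transcripts longer than the coding exon. In 69 members a single-exon coding transcript was annotated that was at most 1.5 times as long as its coding sequence, and it held less than 1% of the gene's counts in 55 of them and over 50% in 3 (Olfr878, Olfr1164 and Taar9, named after the values were seen). For Olfr639 all counts lay on Olfr639-202, of 6570 bases, and 0 on Olfr639-201, the single-exon form of 1020 bases. Vmn1r203 likewise had all of its counts on Vmn1r203-203 (8213 bases) and 0 on the 936-base Vmn1r203-201. In 25 members the leading transcript was annotated as non-coding. Olfr374 was one of them, with 94.8% of its counts in batch A and 93.1% in batch B on Olfr374-203, a processed transcript of 1678 bases. Olfr620 divided its counts between the non-coding Olfr620-202 (57.1% in batch A, 56.7% in batch B) and Olfr620-203, annotated as subject to nonsense-mediated decay (42.9% and 43.2%).

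The leading transcript was the same in both batches for 116 of the 127 members, and Olfr1330 was the clearest exception. In batch A 99.01% of its counts were on Olfr1330-205, a processed transcript of 3053 bases, with 97.0% to 100% in a single oocyte. In batch B that transcript held 0.0379%, and Olfr1330-204, of 5810 bases, held 99.96%, with at least 99.7% in each oocyte. The gene's CPM had hardly differed between the batches, so the switch was seen in the transcript table alone. GV oocytes took the same side as the others of their batch, and stage therefore did not separate the transcripts. Olfr976 differed less, with Olfr976-204 holding 34.8% of its counts in batch A (2.91% to 65.3% in a single oocyte) and 10.6% in batch B (0% to 31.2%), ranges that overlap.

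The test between GV and MI oocytes used batch B alone, whose counts the rule did not use. A difference between GV and MI oocytes could be tested for 102 receptor genes that passed the filter, 84 of them among the 127 members. All MI oocytes had been cultured for 8 h and the GV oocytes had not, so stage and culture cannot be told apart. edgeR called 0 of the 102, hence 0 of the 84 members, beside 0.121% of all 12419 genes tested (15 genes). At an unadjusted p below 0.05 there were 18 receptors (13 of them members), beside 11.0% of all genes, and 14 of the 18 were higher in MI oocytes. With no filter on low counts edgeR had 233 of 1089 receptors at that limit, beside 16.7% of all genes, and only 77 of the 233 were higher. DESeq2 called 5 receptors, all members and all higher in MI oocytes, beside 0.934% of all genes called, of which 103 of 116 were higher in MI oocytes too. The median log2 fold change from GV to MI was -0.01 over the 102 receptors and 0.02 over all genes tested, and 49 of the 102 were above 0. The p-values measure only the spread between these oocytes.

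The 5 receptors called by DESeq2, named after their values were seen, were Olfr95, Olfr718-ps1, Vmn1r43, Vmn2r3 and Vmn2r63. Olfr95 had 0.775, 1.61 and 4.53 CPM in GV and 0.699, 4.86 and 14.6 CPM in MI oocytes, and 13 of 15 MI oocytes were above the GV median. Its log2 fold change was 1.74 (SE 0.399) with an edgeR adjusted p of 0.0598, and the DESeq2 adjusted p was 0.00200. Olfr718-ps1 had a log2 fold change of 1.61 (SE 0.382) with an edgeR adjusted p of 0.0737, and 14 of 15 MI oocytes were above the GV median. Vmn2r3 had a log2 fold change of 1.47 (SE 0.423, edgeR adjusted p = 0.146) with 12 of 15 above, and Vmn2r63 had 1.51 (SE 0.464, edgeR adjusted p = 0.163) with 13 of 15 above. Vmn1r43 spread widest, with 2.18, 3.53 and 7.23 CPM in GV and 1.25, 12.8 and 46.5 CPM in MI oocytes, a log2 fold change of 1.78 (SE 0.460), an edgeR adjusted p of 0.115 and 11 of 15 MI oocytes above the GV median. The DESeq2 adjusted p was 0.00242 for Olfr718-ps1, 0.0240 for Vmn1r43, 0.0278 for Vmn2r3 and 0.0461 for Vmn2r63. In all 5 receptors the lowest MI oocyte lay below the GV median. Without MI oocytes 4, 8 and 9, edgeR called Olfr95 and Vmn1r43, with an adjusted p of 0.0421 for each, beside 0.302% of all genes. Without MI oocyte 15, the library of lowest depth, it called Olfr718-ps1 (adjusted p = 0.0259), beside 0.169% of all genes. On HTSeq counts none of these 5 passed the filter, and edgeR called 0 of 37 receptors tested, beside 0% of all genes called, and 1 was at an unadjusted p below 0.05, beside 7.45% of all genes.

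The receptors that carried the counts gave small fold changes between GV and MI. Olfr624 had a log2 fold change of 0.06 (SE 0.130, edgeR adjusted p = 0.918), and 7 of 15 MI oocytes were above the GV median. Olfr472 had 0.12 (SE 0.114, edgeR adjusted p = 0.775) with 11 of 15 above, and Vmn2r92 had 0.11 (SE 0.107, edgeR adjusted p = 0.779) with 10 of 15 above. Olfr31, which had the lower level at MII in batch A, had a log2 fold change of -0.63 from GV to MI in batch B (SE 0.198), with 14 of 15 MI oocytes not above the GV median. Its unadjusted edgeR p was 0.00334 and its adjusted p 0.179, so it was not called. Olfr620, which differed as clearly in batch A, had 0.20 (SE 0.342, edgeR adjusted p = 0.896). A change from GV to MI was not compared with that from GV to MII by a test, since the stages come from different batches.

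The rule was met with exactly 6 oocytes by 12 members and missed with 5 oocytes by 12 receptors, and on each side 8 of the 12 had their highest count in MII oocyte 1. Of those just inside it the 4 with the highest means are given. Olfr839-ps1 had a mean of 52.3 RSEM counts in batch A and 14.5 without MII oocyte 1, and Olfr344 had 51.9 and 17.2. Vmn2r79 had 48.9 and 16.8, and Olfr613 had 45.4 and 11.3. Just outside it, by the same choice, Olfr986 had a mean of 63.3 and 16.6 without MII oocyte 1, Olfr1385 had 56.8 and 14.6, Olfr338 had 42.6 and 19.8, and Vmn1r58 had 33.5 and 11.2. The values on both sides of the limit overlapped. Without MII oocyte 1 the rule was met by 119 receptors, all of them among the 127.

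Batch B alone would have chosen a shorter list. Requiring 10 counts in at least 13 of its 25 oocytes gave 85 receptors, of which 75 were among the 127 (88.2% of the 85 and 59.1% of the 127). The other 10 were Olfr1039, Olfr1423, Olfr889, Olfr338, Olfr1322, Vmn1r1, Olfr1419, Olfr281, Olfr1564 and Olfr462. Olfr1039 had a median of 39.3 RSEM counts in batch B and reached 10 counts in 19 of 25 oocytes, but in only 2 of 12 oocytes of batch A. Olfr1419 reached it in 14 of 25 and in 0 of 12. All 10 had a mean of at most 2.04 HTSeq counts in batch B. In the other direction 3 members, Olfr287, Vmn2r11 and Olfr479, reached 10 counts in 0 oocytes of batch B.

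Genes that act beside the receptors in sensory neurons were looked at by a list fixed by name. Of its 34 genes of olfactory and vomeronasal signalling, 21 passed the filter in batch A, where edgeR called 0 higher and 1 lower in MII oocytes, beside 2.15% and 6.32% of all genes, a count near that share. That gene was Ebf1, a transcription factor of olfactory neurons and B cells, with a mean of 11.6 CPM in GV and 3.58 CPM in MII oocytes and a log2 fold change of -1.46 (SE 0.345, edgeR adjusted p = 0.00766), and all 6 MII oocytes were below the GV median. On HTSeq counts Ebf1 was not called, and edgeR called Ric8b, a chaperone of olfactory G proteins, higher, beside 0.753% of all genes. On HTSeq counts without MII oocyte 1, a setting chosen after seeing the data, it called 0 of the list, beside 91 higher and 597 lower of 13655 genes. DESeq2 on RSEM counts called Ebf1 and Lhx2 lower and Ric8b higher, beside 6.53% and 2.17% of all genes. With RLE size factors edgeR called Ebf1 lower and Ric8b higher (6.12% and 2.19% of all genes), and with no filter Ebf1 lower and Gng13 higher (2.62% and 2.43%). With spike-in size factors it called 5 lower (Ebf1, Lhx2, Gnas, Pde1c and Eif2ak3) and 0 higher, beside 29.3% and 1.01% of all genes. All these genes are named after the calls were seen. At an unadjusted p below 0.05 edgeR had 6 of the 21, beside 34.3% of all genes. The stimulatory G protein gene Gnas, used in many tissues, had -0.81 (SE 0.142, edgeR adjusted p = 0.00110) with all 6 MII oocytes below the GV median, and was not called for its fold change of less than 2. Kdm1a, not called for the same reason, went the other way. It had 0.62 (SE 0.166, edgeR adjusted p = 0.0156) with 0 of 6 MII oocytes below the GV median. In batch B 18 of the 34 were tested and edgeR called 0, with 2 at an unadjusted p below 0.05 beside 11.0% of all genes, while DESeq2 called 0 with 4 beside 12.5%. Gnal, the olfactory G protein subunit that couples odorant receptors to the cyclase, had a mean of 0.211 CPM in GV and 0.227 CPM in MII oocytes of batch A and passed the filter in neither batch. Adcy3, the cyclase itself, had 1.41 and 1.03 CPM in the same groups.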

How the data were processed

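For each oocyte the authors deposited HTSeq counts of genes, and RSEM expected counts of both genes and transcripts. Per the labels they used Trim Galore 0.6.4, STAR 2.7.6a, HTSeq 0.12.4 and RSEM 1.3.1 with mm10 and, per their methods, GENCODE VM20. Symbols came from GENCODE M21, matched by identifier without version (54723 of 54844 rows), because M20 symbols were not at hand. The 92 ERCC rows were left out of library totals. CPM used all remaining gene counts, and TPM used RSEM transcript counts over annotated transcript length. Rounded RSEM counts were tested within each batch with edgeR 4.0.16 (quasi-likelihood, TMM, filterByExpr, Benjamini-Hochberg) under R 4.3.3, tested on simulated data first. Alternatives were DESeq2 1.42.0, RLE and spike-in size factors, no filter, HTSeq counts, a replicate block, left-out oocytes and other member rules. Python 3.11.15 with pandas 2.3.3, numpy 2.4.6 and matplotlib 3.10.9 made the tables and figures. The members and lists were chosen with earlier results of these data known. Named genes were the 15 members with the highest mean TPM in batch A and the 10 in batch B, up to 4 at each side of the threshold, and receptors past the rule in batch B only.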

Additional observations from a re-analysis of the deposited data

Results flagged for a closer look

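In each group of up to 10 oocytes the highest and the lowest value were compared with the rest by Dixon's criterion, in 60 tests, of which chance marks about 1 in 20. The number of receptor genes with at least 1 RSEM count was far above the others in MII oocyte 1 of batch A (1275, others 431 to 706) and in GV oocyte 1 of batch B (564, others 279 to 409). The members other than the leading 8 summed to 2220 CPM in MII oocyte 1, against 655 to 876 CPM in the other MII oocytes.

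Single values stood apart in these 2 oocytes and in others. The summed HTSeq to RSEM ratio of the 22 high members was 1.89 in GV oocyte 1 of batch B and 2.01 to 2.13 in the other 9. Olfr639 had 648 CPM in MII oocyte 1, against 413 to 449 CPM in the other MII oocytes. Olfr288, which shares most of its exonic bases with Gm44579, had 61.3 CPM in GV oocyte 4 of batch B, against 5.18 to 16.4 CPM. Olfr976 had 128 CPM in GV oocyte 5 of batch A (others 78.5 to 92.2) and 91.0 CPM in MII oocyte 2 (others 61.2 to 69.8). The cause of none of these was tested.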

How the results depend on the processing

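The count of receptors called between GV and MI in batch B was 0 and remained 0 with RLE size factors, without a filter and on HTSeq counts, but was 5 with DESeq2, 2 without MI oocytes 4, 8 and 9, and 1 without MI oocyte 15. With HTSeq counts as well as without these 3 oocytes, which was chosen after seeing the data, it was 0. Over all genes RLE size factors called 9 higher and 2 lower of 12419, and no filter 18 higher and 22 lower of 32444.

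Between GV and MII in batch A 32 receptors were called, 26 higher and 6 lower. No filter gave 146, with 138 higher. HTSeq counts gave 2, with 0 higher and 2 lower, and HTSeq counts without MII oocyte 1, also chosen after seeing the data, gave 2, with 0 higher and 2 lower. Over all genes the latter called 91 higher and 597 lower of 13655 tested. Spike-in size factors gave 17 higher and 26 lower. Leaving out each oocyte in turn gave 14 to 45 in all, 7 to 35 higher and 5 to 10 lower, the lowest totals and higher counts being those without MII oocyte 1. These were out of 129 to 144 receptors tested. Over all genes the same fits called 163 to 337 higher and 644 to 909 lower, out of 13093 to 13374 tested. RLE size factors and DESeq2 stayed within 1.5 times the main count.

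As oocytes of different stages share replicate numbers, a replicate block was tried, which gave 29 calls in batch A (25 higher and 4 lower) and 0 in batch B. Over all genes it called 218 higher and 668 lower of 12929 in batch A, and 0 of 11930 in batch B. The correlations between oocytes of the same number were -0.327 to 0.341 in batch A and -0.146 to 0.107 in batch B, so the numbers were not read as pairs.

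The rule gave 127 members, 198 with 5 counts, 76 with 20 counts, 200 with 3 oocytes, 62 with all 12, and 48 on HTSeq counts. The mean summed CPM was 8751, 6366, 7212 and 7409 in GV and MII of batch A and GV and MI of batch B. On HTSeq counts it was 344, 288, 240 and 223, and without ribosomal RNA-like features in the total 10515, 8347, 10131 and 10522. Without MII oocyte 1 it stayed within the spread between oocytes. The 79 members with a ratio below 0.1 were 81 in batch B. The cause of these changes was not tested, except that fewer or more genes pass when the count limit moves.

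In batch B 84 of the 127 members passed the filter on low counts, and 83 did without MI oocyte 15, the lowest library, with 2709280 counts. Confidence intervals for single genes were not given. The SE printed with an edgeR log2 fold change is that change, without its sign, divided by the square root of the F statistic of the test. Reads without molecular identifiers are not independent molecules.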
